A study of Mus musculus with 12 samples.

Results

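The genes described here are 9 nuclear genes whose products copy or transcribe mitochondrial DNA (mtDNA) or switch on the genes that do so: Tfam, Tfb1m, Tfb2m, Polrmt, Polg, Polg2, Ssbp1, Nrf1 and Gabpa. They were chosen by name, and all 22 probe sets that the platform's probe table assigns to 1 of these genes alone were taken, out of 45037 probe sets and 18193 genes in all. The tissue was brown fat, which burns fuel to make heat, and 12 one-colour Affymetrix arrays were used, 1 per mouse. All mice in both groups were male ob/ob animals aged 3 months, which lack working leptin, and were kept on normal chow. The 6 treated mice received 1 mg/kg of an agonistic antibody against the receptor FGFR1 into the abdominal cavity once, and the 6 reference mice received a control IgG and were pair-fed, meaning that their food was matched to that of the treated mice; tissue was taken 4 days after the injection. Values are log2 expression as deposited, and the question is how brown fat responds to activation of this receptor.

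Mitochondria carry a small circular genome that encodes part of the respiratory chain, and brown adipocytes are packed with mitochondria. The DNA polymerase of mitochondria has a catalytic subunit, encoded by Polg, and an accessory subunit, encoded by Polg2, and it works with a single-stranded DNA binding protein encoded by Ssbp1. Transcription needs the RNA polymerase Polrmt, the protein Tfam, which also packs mtDNA, and Tfb2m, while its relative Tfb1m methylates the small ribosomal RNA of mitochondria. Nrf1 and Gabpa are nuclear transcription factors known to bind the promoters of many such genes, including Tfam.

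The promoters shown are those of the 4 members with the smallest p in the comparison described afterwards. They are RefSeq windows of GRCm38.p6 running from 250 bases before to 50 bases after a start position, printed along the gene's strand. That start position need not be the outer end of the gene. Capitals mark the NRF1 core motif, CGCANGCG on one strand and CGCNTGCG on the other, and the GABP core motif, CCGGAAG and CTTCCGG, searched on both strands. The Ssbp1 window lies at chr6:40471218-40471517 on the plus strand, that of Tfb1m at chr17:3557706-3558005 on the minus strand, that of Polrmt at chr10:79746532-79746831 on the minus strand and that of Tfam at chr10:71237995-71238294 on the minus strand.
Ssbp1: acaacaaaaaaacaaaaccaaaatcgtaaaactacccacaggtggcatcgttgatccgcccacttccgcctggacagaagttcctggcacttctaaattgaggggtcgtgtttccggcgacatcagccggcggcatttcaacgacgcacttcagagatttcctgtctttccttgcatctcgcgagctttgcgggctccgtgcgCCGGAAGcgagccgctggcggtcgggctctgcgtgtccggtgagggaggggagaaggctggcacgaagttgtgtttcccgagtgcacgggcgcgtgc
Tfb1m: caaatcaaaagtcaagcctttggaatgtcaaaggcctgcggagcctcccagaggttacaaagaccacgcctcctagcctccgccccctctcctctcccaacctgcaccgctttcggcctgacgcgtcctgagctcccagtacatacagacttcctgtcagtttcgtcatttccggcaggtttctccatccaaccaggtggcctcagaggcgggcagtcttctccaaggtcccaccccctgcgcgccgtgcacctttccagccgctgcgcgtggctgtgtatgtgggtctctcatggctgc
Polrmt: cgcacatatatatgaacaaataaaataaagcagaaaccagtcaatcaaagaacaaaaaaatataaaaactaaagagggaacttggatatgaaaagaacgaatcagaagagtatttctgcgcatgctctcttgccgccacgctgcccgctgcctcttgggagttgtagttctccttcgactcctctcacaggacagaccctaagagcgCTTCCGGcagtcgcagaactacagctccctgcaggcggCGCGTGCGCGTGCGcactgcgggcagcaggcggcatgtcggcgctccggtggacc
Tfam: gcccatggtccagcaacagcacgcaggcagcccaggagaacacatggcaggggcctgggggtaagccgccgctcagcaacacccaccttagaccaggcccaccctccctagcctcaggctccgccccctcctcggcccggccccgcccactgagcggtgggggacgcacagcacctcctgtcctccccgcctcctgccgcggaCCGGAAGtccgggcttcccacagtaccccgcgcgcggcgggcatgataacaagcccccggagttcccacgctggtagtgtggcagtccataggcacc
In both Ssbp1 and Tfam the GABP core runs from -47 to -41 relative to the start position of the window. The Tfam gene spans chr10:71225468-71238328, so its whole window lies inside the gene. The Ssbp1 gene begins at chr6:40471414, within its window. Polrmt holds a GABP core from -43 to -37 and 2 NRF1 cores that overlap each other, from -5 to 3 and from 2 to 9. Neither set of letters occurs in the Tfb1m window.

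Of the 9 members, 4 hold the NRF1 core in a window (Tfb2m, Nrf1, Gabpa and Polrmt) and 6 the GABP core (Tfam, Gabpa, Polg, Polg2, Polrmt and Ssbp1). Both occur in Gabpa and Polrmt. Among 27025 genes with a promoter window, 9.22% hold the NRF1 core in a window and 9.93% the GABP core. A match describes the letters only.

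After anti-FGFR1, 2 of the 9 members rose and 0 fell (limma, adjusted p under 0.05 over all genes). They were Tfb1m, the methyltransferase of mitochondrial ribosomal RNA, which was 1.18-fold higher, and Ssbp1, the mitochondrial single-stranded DNA binding protein, which was 1.14-fold higher. Over all 18193 genes 8.03% were called, 2.94% higher and 5.09% lower, so that 63.4% of the calls were lower, against 50.9% after another quantile normalization. The members' median log2 fold change was 0.08, with 7 of 9 above 0, against a median of 0.01 and 53.4% above 0 over all genes. An unadjusted p under 0.05 was found for 4 members, against 22.4% of all genes. All the differences were small, and the highest upper end of a member's 95% interval was 0.37 (Tfb1m), a fold of 1.29. The tissue was whole brown fat, so more or fewer cells of a type and more or less RNA per cell cannot be told apart.

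**Figure D1:**
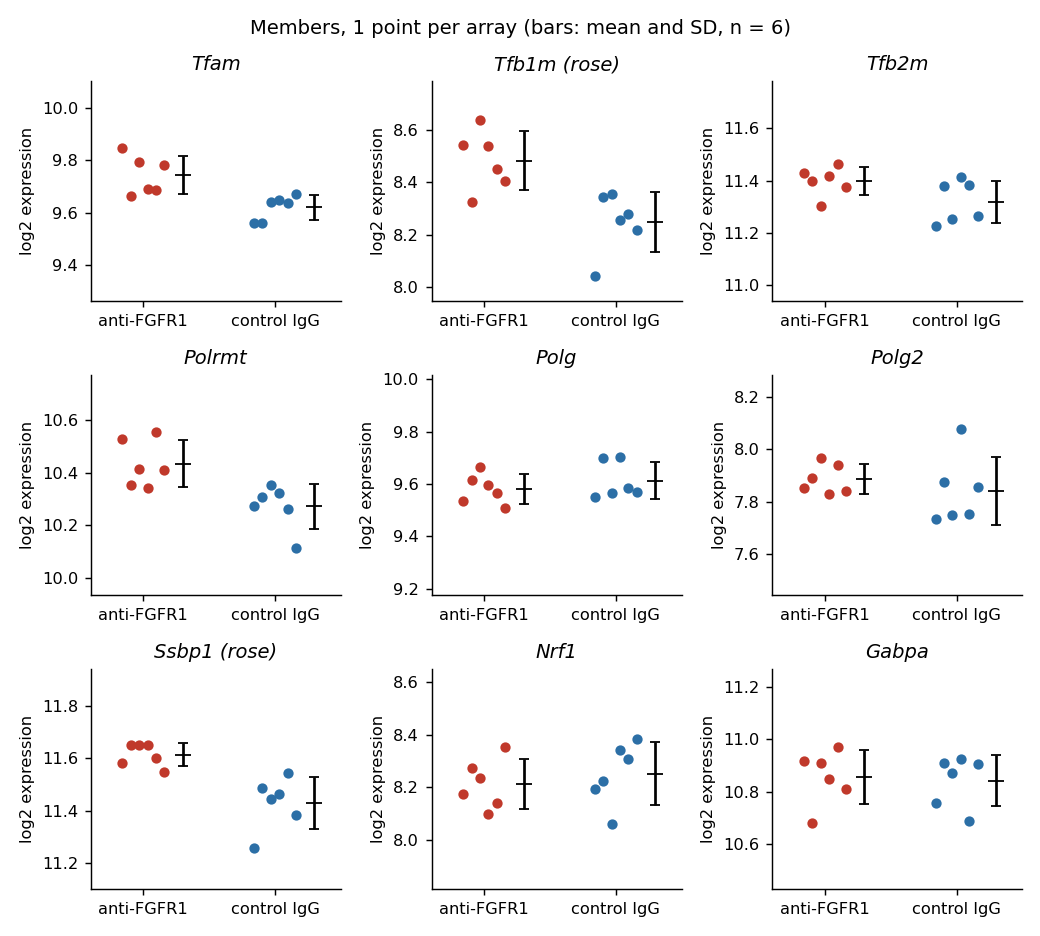
Log2 expression of the 9 members on each array, using the probe set with the highest mean, with anti-FGFR1 in red left of control IgG in blue. Bars give the mean and SD of 6 arrays, and every panel spans the same log2 range. For Ssbp1 the lowest anti-FGFR1 array (11.55) lies above the highest control IgG array (11.54), and the other 8 members overlap between the groups.

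Tfb1m had the largest log2 fold change of the 9 members. Its log2 expression ran from 8.33 to 8.64 with a median of 8.49 in anti-FGFR1 mice, against 8.04 to 8.36 with a median of 8.27 in control IgG mice. Of the 6 anti-FGFR1 arrays 5 lay above all controls, and the exception was replicate 2. The log2 fold change was 0.23 ± 0.06 (SE, n = 6 per group, limma adjusted p = 0.0362). Its other probe set differed by 0.20 ± 0.06 and did not pass in the fit over all probe sets (limma adjusted p = 0.0782).

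Tfam, which packs mtDNA and starts its transcription, ran from 9.67 to 9.85 with a median of 9.74 in anti-FGFR1 mice and from 9.56 to 9.67 with a median of 9.64 in control IgG mice. All but 1 of the 6 anti-FGFR1 arrays, replicate 2, exceeded the highest control, but the difference of 0.12 ± 0.04 did not pass (SE, limma adjusted p = 0.110). Its 95% interval ran from 0.03 to 0.22. The other probe set differed by 0.09 ± 0.06.

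Polrmt, the RNA polymerase of mitochondria, ran from 10.34 to 10.56 with a median of 10.41 in anti-FGFR1 mice and from 10.11 to 10.35 with a median of 10.29 in control IgG mice. Here 4 of 6 anti-FGFR1 arrays lay above all controls. The difference was 0.16 ± 0.05 and did not pass (SE, limma adjusted p = 0.0817), and the other probe set differed by 0.06 ± 0.06. Tfb2m, which opens the promoters of mtDNA, ran from 11.30 to 11.46 in anti-FGFR1 mice and from 11.23 to 11.41 in control IgG mice. For Tfb2m 3 of 6 anti-FGFR1 arrays lay above all controls. It differed by 0.08 ± 0.05, with a 95% interval from -0.02 to 0.18 (SE, limma adjusted p = 0.345).

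Among the replication proteins, Ssbp1 was the one that passed. Ssbp1 ran from 11.55 to 11.65 with a median of 11.62 in anti-FGFR1 mice and from 11.26 to 11.54 with a median of 11.45 in control IgG mice. The groups did not overlap, which held upward for 1.57% of all genes and downward for 3.55%. The log2 fold change was 0.18 ± 0.05 (SE, n = 6 per group, limma adjusted p = 0.0347).

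The 5 probe sets of Ssbp1 disagreed in size. The 3 designed on the same source sequence differed by 0.18, 0.07 and 0.07, and the other pair by -0.03 and 0.16, and none passed in the fit over all probe sets. In control IgG mice the 3 averaged 11.43, 10.58 and 6.40, and the other pair 7.33 and 5.15. Array medians lay between 7.19 and 7.23. With the mean of all its probe sets, dim and bright weighted alike, Ssbp1 was at 0.09 ± 0.04 and its call was lost (limma adjusted p = 0.164).

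Polg, the catalytic subunit of the mitochondrial DNA polymerase, ran from 9.51 to 9.66 in anti-FGFR1 mice and from 9.55 to 9.70 in control IgG mice. It differed by -0.03 ± 0.05 (95% interval -0.13 to 0.07, limma adjusted p = 0.741), a sign that turned after another quantile normalization (0.01), and its other probe sets were at 0.09 and -0.06. Polg2, the accessory subunit, ran from 7.83 to 7.97 in anti-FGFR1 mice and from 7.73 to 8.08 in control IgG mice, with a difference of 0.05 ± 0.06 (95% interval -0.08 to 0.17, limma adjusted p = 0.692). Without control IgG replicate 4, the highest of all 12 arrays, Polg2 differed by 0.09 ± 0.05 (limma adjusted p = 0.279).

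The nuclear regulators did not pass. Nrf1 ran from 8.10 to 8.35 in anti-FGFR1 mice and from 8.06 to 8.38 in control IgG mice, and differed by -0.04 ± 0.06 (95% interval -0.17 to 0.09, limma adjusted p = 0.759). Of its 4 probe sets 2 lay above 0 and 2 below, between -0.06 and 0.04. Gabpa, the DNA-binding subunit of GABP, ran from 10.68 to 10.97 in anti-FGFR1 mice and from 10.69 to 10.93 in control IgG mice, and differed by 0.01 ± 0.06 (95% interval -0.11 to 0.14, limma adjusted p = 0.923). Its other probe set was at -0.11 ± 0.08.

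**Figure D2:**
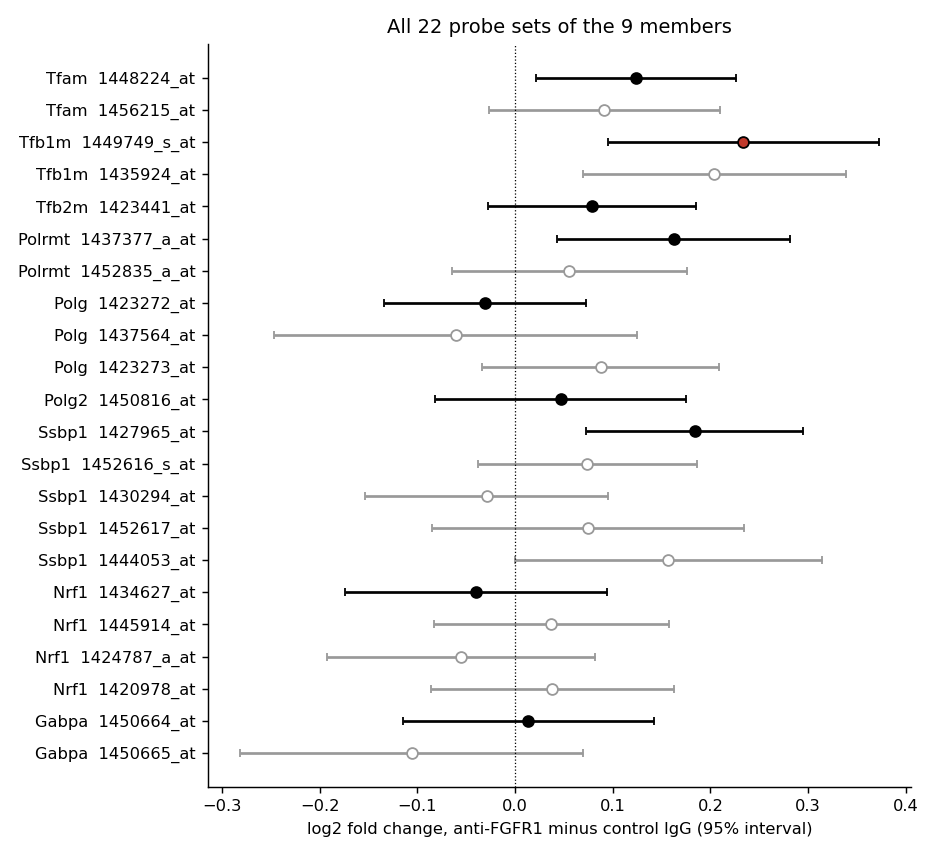
Log2 fold change, anti-FGFR1 minus control IgG, with its 95% interval from limma for all 22 probe sets of the 9 members. Black marks the brightest probe set of a gene, open grey the others, and red the probe set called in the fit over all probe sets. Of the 22, 16 lie above 0, against 53.4% of all genes, and both probe sets of Tfb1m lie near 0.2.

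Fitted over all 45037 probe sets, where 5.32% were called, 1.66% higher and 3.66% lower, 1 of the members' 22 probe sets passed, the brighter one of Tfb1m (limma adjusted p = 0.0496). The brightest probe set of Ssbp1 then missed the threshold (limma adjusted p = 0.0546). Of the 22, 16 lay above 0 and 6 below, and 5 had an unadjusted p under 0.05. Over all genes 53.4% lay above 0 and 22.4% had such a p, and the shares over all probe sets were not counted. In 5 of the 9 genes (Tfam, Tfb1m, Tfb2m, Polg2 and Polrmt) every probe set lay above 0, and in none did every probe set lie below. Tfb2m and Polg2 have only 1 probe set each, so for them this says nothing about agreement.

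Both calls lay close to the threshold. Without a single array, the log2 fold change of Tfb1m stayed between 0.19 and 0.27 and that of Ssbp1 between 0.15 and 0.21, and each was called in 5 of 12 such fits. The limma adjusted p of Tfb1m was 0.0791, 0.0784, 0.0775 and 0.0575 without anti-FGFR1 replicates 1, 3, 4 and 5, and 0.0518, 0.0596 and 0.0636 without control IgG replicates 1, 4 and 6. That of Ssbp1 was 0.0553, 0.0726, 0.0705, 0.0745 and 0.0611 without anti-FGFR1 replicates 1 to 5, and 0.0626 and 0.0652 without control IgG replicates 3 and 6. The scale mattered as well: with each array centred on its median both were lost, Tfb1m at 0.0519 and Ssbp1 at 0.0554, while after another quantile normalization both passed and so did Tfam (0.16 ± 0.04, limma adjusted p = 0.0365) and Polrmt (0.20 ± 0.06, limma adjusted p = 0.0424).

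**Figure D3:**
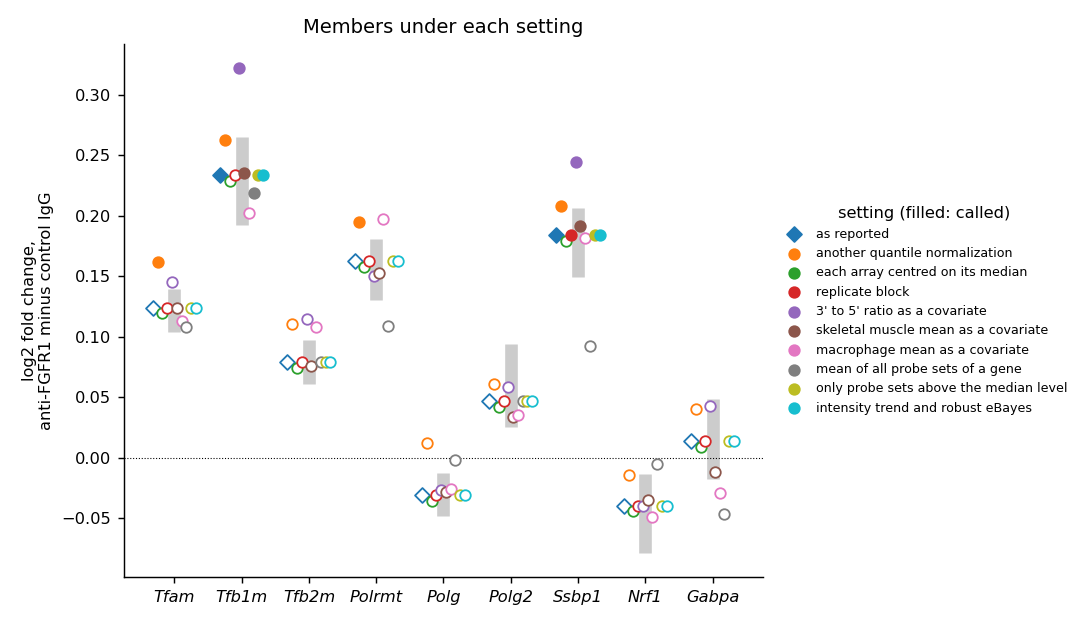
Log2 fold change of each member under the 9 other settings and as reported (diamond), with filled marks where limma's adjusted p is under 0.05. Grey bars span the fits without a single array. Tfam, Tfb1m, Tfb2m, Polrmt, Polg2 and Ssbp1 stay above 0 throughout, whereas Gabpa and Polg lie on both sides of 0.

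Markers of other cells and a measure of RNA integrity were set beside these values. The log2 ratio of 3' to 5' control probe sets of Actb and Gapdh was 0.203 ± 0.027 in anti-FGFR1 mice and 0.161 ± 0.031 in control IgG mice (SD, n = 6 per group, two-sided exact permutation p = 0.0368). With that ratio as a covariate Tfb1m was at 0.32 ± 0.07 and Ssbp1 at 0.24 ± 0.06, both still called (limma adjusted p = 0.0322 and 0.0393). Of 15 macrophage markers 3 rose and 14 were above 0, against 2.94% called higher and 53.4% above 0 over all genes. Their mean ran from 9.75 to 10.18 in anti-FGFR1 mice and from 9.50 to 10.22 in control IgG mice (two-sided exact permutation p = 0.0844). With the macrophage mean as a covariate Tfb1m was at 0.20 ± 0.07 and Ssbp1 at 0.18 ± 0.06, and both calls were lost (limma adjusted p = 0.0922 and 0.0610). Of 14 endothelial markers 8 fell, against 5.09% called lower over all genes. Their mean ran from 9.22 to 9.45 in anti-FGFR1 mice and from 9.48 to 9.71 in control IgG mice. Its two-sided exact permutation p was 0.0022, the smallest possible. The part of the endothelial markers in the members' values was not tested. Of 16 skeletal muscle markers only 1 lay above 0, with a median log2 fold change of -0.635, while 0 passed limma and 0 had an unadjusted p under 0.05. Anti-FGFR1 replicate 5 was lowest in their mean (6.77, against 10.28 to 11.48 on the other 5 anti-FGFR1 arrays). With the muscle mean as a covariate Tfb1m (0.24 ± 0.07, limma adjusted p = 0.0489) and Ssbp1 (0.19 ± 0.05, limma adjusted p = 0.0398) stayed called.

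The brown adipocyte markers were present: the dimmest of the 9 measured, Prdm16, averaged 9.40 in anti-FGFR1 mice and 9.62 in control IgG mice, above the array medians of 7.19 to 7.23. The mean of the 9 measured markers ran from 12.32 to 12.50 in anti-FGFR1 mice and from 11.97 to 12.45 in control IgG mice. Of the 9, 1 rose, 0 fell and 7 lay above 0, against 2.94% higher, 5.09% lower and 53.4% above 0 over all genes. Elovl3, an enzyme that lengthens fatty acids, was the one that rose, by 0.76 ± 0.19 (SE, limma adjusted p = 0.0254). It ran from 11.55 to 12.12 in anti-FGFR1 mice and from 10.10 to 11.52 in control IgG mice. Its groups did not overlap, as held upward for 1.57% of all genes. The marker mean differed by 0.13 (two-sided exact permutation p = 0.0563), and its part in the members' values was not tested. Ucp1, the uncoupling protein that makes heat, averaged 14.55 ± 0.05 in anti-FGFR1 mice and 14.52 ± 0.04 in control IgG mice (SD, n = 6 each).

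The members' pooled SD within groups lay between 0.0617 (Tfam) and 0.1129 (Tfb1m), against a median of 0.1115 over all genes. Tfb1m, the member with the largest log2 fold change, lay slightly above that median, and every other member lay below it. After Tfb1m the highest were Nrf1 (0.1072), Polg2 (0.1002) and Gabpa (0.0999). With the group means subtracted, the 36 pairs of members had a Pearson r between -0.48 (Nrf1 with Polrmt) and 0.74 (Polg with Polg2) over the 12 arrays, with a median of 0.22 and 29 pairs above 0. The subunits of the DNA polymerase were the closest pair, followed by Tfb1m with Ssbp1 (0.61). The values of one array share its scale and the quality of its RNA, which differed between arrays, so these correlations are a description only.

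The genes whose centred values were most like a member's over the 12 arrays were ranked by Pearson r among all genes. For Tfb2m this was Mrm3 (0.92), which methylates the large ribosomal RNA of mitochondria, for Polrmt Mrpl16 (0.92), a mitochondrial ribosomal protein, and for Polg2 Mrrf (0.92), the mitochondrial ribosome recycling factor, ahead of Yy1 (0.92). For Tfb1m they were Commd3 (0.95) and Decr2 (0.95), for Ssbp1 Zfp771 (0.95) and Foxk1 (0.94), for Polg Ccpg1os (0.92) and Slc25a27 (0.92), for Gabpa Map2k5 (0.94) and Nadk (0.92), for Nrf1 Tdpoz1 (0.88) and Mycl (0.87), and for Tfam 4930545H06Rik (0.87) and Cdk11b (0.85). The second genes for Tfb2m and Polrmt were 4930431P03Rik (0.89) and Zadh2 (0.91). With 18193 genes and 12 arrays, such values are the extremes of a long list.

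Of 86 measured genes in 7 further lists, 3 rose and 1 fell, against 2.94% higher and 5.09% lower over all genes, and their median log2 difference was 0.01, against 0.01 over all genes. The 4 calls became 10 with the mean of all probe sets and 1 once the 3' to 5' ratio entered the model. The 3 that rose were Slc25a33, Dguok and Ppargc1b, and the 1 that fell was Alas1.

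The list of mitochondrial nucleotide supply held 2 of the rises among 10 measured genes, with 9 of 10 above 0 and a median of 0.06, against 2.94% called higher and 53.4% above 0 over all genes. Slc25a33, a carrier that brings pyrimidine nucleotides into mitochondria, ran from 10.12 to 10.35 with a median of 10.28 in anti-FGFR1 mice and from 9.93 to 10.08 with a median of 10.02 in control IgG mice. It rose by 0.25 ± 0.05 (SE, limma adjusted p = 0.00552) without overlap of the groups, as 1.57% of all genes did upward. Dguok, the kinase that salvages purine deoxynucleosides for mtDNA, ran from 9.78 to 9.89 in anti-FGFR1 mice and from 9.59 to 9.69 in control IgG mice, again without overlap. It rose by 0.19 ± 0.04 (SE, limma adjusted p = 0.00662). Both calls held in all 12 fits without a single array, and that of Dguok was lost, at the same size, once the 3' to 5' ratio entered the model (0.19 ± 0.05, limma adjusted p = 0.0514).

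Of 16 other genes of mtDNA replication and maintenance 0 passed limma and 8 lay above 0, while 3 had an unadjusted p under 0.05. Over all genes 53.4% lay above 0 and 22.4% had such a p. Endog, a mitochondrial nuclease, differed by 0.18 ± 0.05 (limma adjusted p = 0.0532) and passed without control IgG replicate 3 (0.0323) or 4 (0.0472). Rnaseh1, which removes RNA from RNA-DNA hybrids, differed by -0.16 ± 0.05 (limma adjusted p = 0.0589) and passed without anti-FGFR1 replicate 4 (0.0425) or control IgG replicate 4 (0.0285). Of the 12 fits without a single array, each passed in 2 only. Under the 9 other settings Endog passed in 4 and Rnaseh1 in 3. Neither passed once the 3' to 5' ratio entered the model (limma adjusted p = 0.0938 for Endog and 0.349 for Rnaseh1). The helicase Twnk, named after its value was seen, differed by -0.12 ± 0.05 (limma adjusted p = 0.168).

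Of 6 measured genes of mitochondrial transcription 0 passed limma, and 1 had an unadjusted p under 0.05, against 22.4% of all genes. Mterf2, of the family of mitochondrial termination factors, differed by 0.16 ± 0.06 (limma adjusted p = 0.136), and the elongation factor Tefm by 0.10 ± 0.07 (limma adjusted p = 0.422). Of 21 genes of mitochondrial RNA processing and stability 0 passed limma, and 4 had an unadjusted p under 0.05, against the same 22.4% of all genes. Lrpprc, which keeps mitochondrial messenger RNAs stable, came closest at 0.13 ± 0.04 (limma adjusted p = 0.0529). Its groups did not overlap, as held upward for 1.57% of all genes, at 10.64 to 10.76 in anti-FGFR1 mice and 10.50 to 10.59 in control IgG mice. Lrpprc passed in 4 of the 9 other settings and in 0 of 12 fits without a single array. Once the 3' to 5' ratio entered the model it was at 0.13 ± 0.05 (limma adjusted p = 0.210). Fastkd3, an RNA-binding protein of mitochondria, differed by -0.15 ± 0.05 (limma adjusted p = 0.0776) and passed without control IgG replicate 1 (0.0475). Fastkd3 was at -0.06 ± 0.05 when both its probe sets were averaged (limma adjusted p = 0.516). The other probe set differed by 0.03 and was dim, averaging 5.50 in control IgG mice, below the array medians of 7.19 to 7.23. Once the 3' to 5' ratio entered the model, Fastkd3 was at -0.09 ± 0.06 (limma adjusted p = 0.480).

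A list of 16 genes held partners of Nrf1 and Gabpa, coactivators and other regulators. Of these 1 rose and 0 fell, and 3 lay above 0, with a median of -0.06, against 2.94% called higher and 53.4% above 0 over all genes. This list had 4 calls with the mean of all probe sets, and 0 with median-centred arrays or once the 3' to 5' ratio or the muscle mean entered the model. Ppargc1b, a coactivator of NRF1 and of estrogen-related receptors, ran from 12.13 to 12.39 in anti-FGFR1 mice and from 11.79 to 12.21 in control IgG mice. It rose by 0.26 ± 0.07 (SE, limma adjusted p = 0.0448), with the groups overlapping. Its call was lost without anti-FGFR1 replicate 1, 2, 4, 5 or 6 (limma adjusted p = 0.0870, 0.0816, 0.0765, 0.0969 and 0.0609) or control IgG replicate 1, 3, 4 or 6 (0.0593, 0.0752, 0.0914 and 0.0842), once the 3' to 5' ratio (0.222) or the muscle mean (0.0571) entered the model, and with median-centred arrays (0.0566). Its relative Ppargc1a differed by 0.26 without passing (limma adjusted p = 0.115), and the GABP beta subunits Gabpb1 and Gabpb2 by -0.09 ± 0.06 and -0.03 ± 0.06; these 3 were named after their values were seen.

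Of 16 textbook targets of NRF1 or GABP outside the members, 0 rose and 1 fell, against 2.94% higher and 5.09% lower over all genes. Alas1, the first enzyme of heme synthesis, ran from 11.78 to 12.08 in anti-FGFR1 mice and from 12.12 to 12.36 in control IgG mice. The groups did not overlap, which held downward for 3.55% of all genes. The log2 fold change of Alas1 was -0.27 ± 0.06 (SE, limma adjusted p = 0.0128). The call was lost once the 3' to 5' ratio entered the model (-0.25 ± 0.08, limma adjusted p = 0.106) and when both probe sets were averaged (-0.21 ± 0.06, limma adjusted p = 0.0529). The other 15, subunits of respiratory complexes, cytochrome c and import receptors, lay between -0.06 and 0.07. Many of these probe sets, such as Cox5b (14.48 in anti-FGFR1 mice and 14.46 in control IgG mice) and Cox6a1 (14.54 in anti-FGFR1 mice and 14.52 in control IgG mice), lie near the highest value on any array (14.9), where a change may not be seen. Of 15 transcripts encoded by mtDNA only ND5, a subunit of complex I, had a probe set of a single gene. ND5 ran from 13.96 to 14.22 in anti-FGFR1 mice and from 13.98 to 14.25 in control IgG mice, likewise near that highest value, and differed by 0.03 ± 0.06 (95% interval -0.09 to 0.15, limma adjusted p = 0.800).

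**Figure D4:**
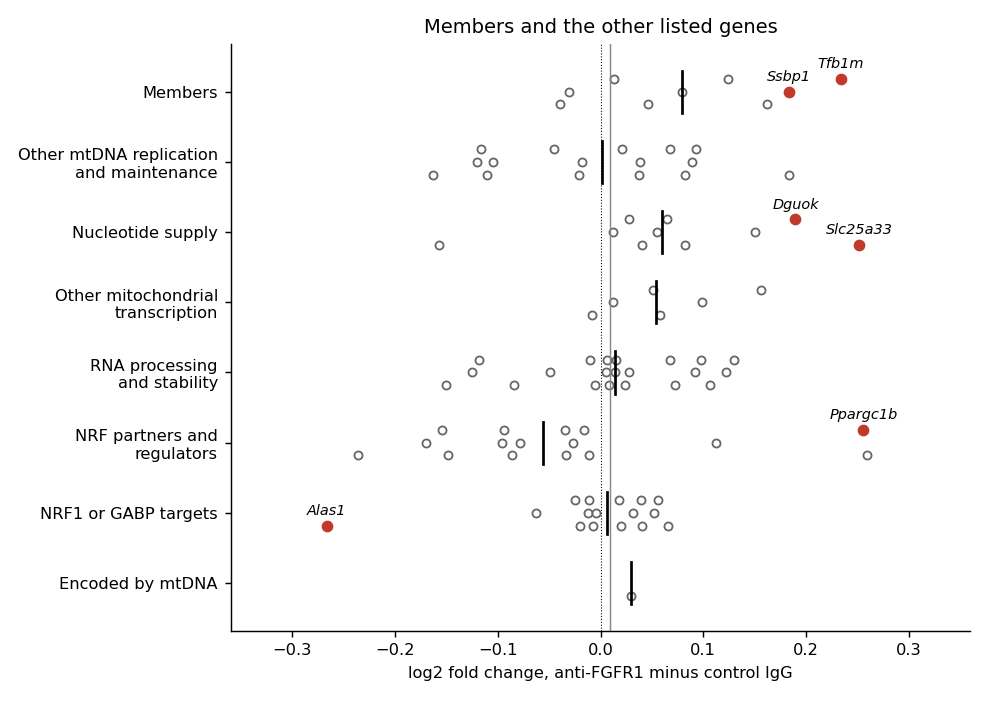
Log2 fold change, anti-FGFR1 minus control IgG, of the members and of the genes in 7 other lists, 1 point per gene. Red points passed limma and are named, open points did not, black bars are list medians and the grey line is the median of all genes (0.01).

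**Figure D5:**
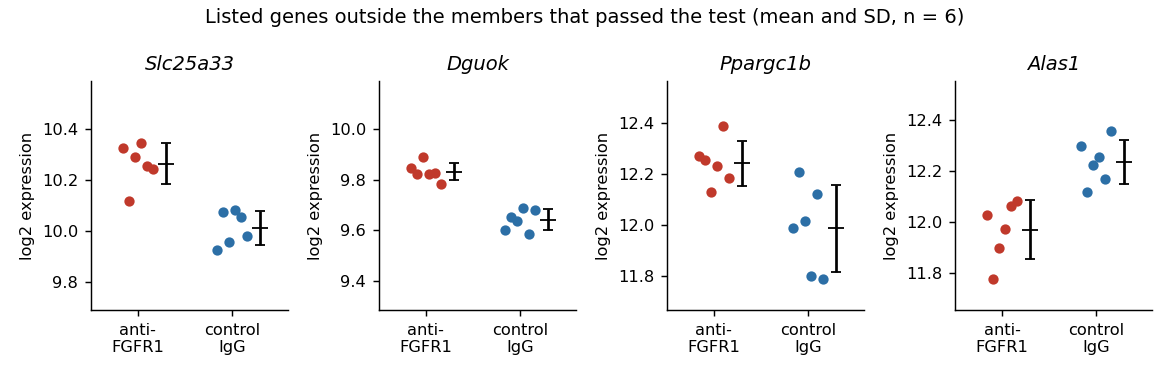
Log2 expression on each array of the 4 listed genes outside the members that passed, anti-FGFR1 in red left of control IgG in blue, with mean and SD of 6 arrays. Slc25a33, Dguok and Alas1 do not overlap between the groups, and Ppargc1b does.

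Genes with a core motif in their promoter window were counted as a description. Of 2140 measured genes with the NRF1 core 2.01% rose and 6.36% fell, and of 2165 with the GABP core 2.82% rose and 4.53% fell, against 2.88% and 5.09% of all 14452 measured genes with a window. Their median log2 fold changes were -0.02 and -0.02, against 0.01.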

How the data were processed

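The authors deposited log2 values for 45101 probe sets on every array. RMA and limma are named, without versions, per the submitters' processing notes, and a genome build is not given in the sources used here. RMA pulls small changes of dim probe sets toward 0. Arrays give no counts, and their number limits the precision. The log2 values were used as deposited. Array medians lay between 7.19 and 7.23, arrays correlated at 0.990 to 0.997, and no pair shared more than 0.0665% of values.

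The platform's probe table supplied gene names (34945 with 1 gene, 932 with several, 9211 not listed), with symbols updated by Entrez identifier to RefSeq GRCm38.p6. The 64 control probe sets stayed out. A gene was represented by its brightest probe set on average, leaving 18193 genes, and all members' probe sets were also read from a fit over 45037 probe sets. The comparison used limma 3.58.1 under R 4.3.3 (lmFit, eBayes, two-sided, Benjamini-Hochberg over the whole table, called under 0.05). Errors are moderated SEs. Values per array were compared by exact permutation over 924 assignments, whose smallest p is 0.0022. The fit was tested on simulated data. Promoter windows and their matches came from RefSeq tables, read with Python 3.11.15, and all 9 members had a window.

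Named genes are the 9 members, the called members of each of 7 lists (otherwise the 2 with the smallest p), and the 2 genes most like each member. Ucp1 was named to check the tissue. Elovl3, Prdm16, Cox5b and Cox6a1 lie outside this rule and were named after their values were seen. The members and lists were chosen with earlier results of these data known. Alternatives were another quantile normalization, median centring, a replicate block, 3 covariates, the mean of probe sets, a filter at the median level (7.20), an intensity trend with robust eBayes, and each array left out.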

Additional observations from a re-analysis of the deposited data

Results flagged for a closer look

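Of 76 groups of 6 arrays examined, 6 held a value that stood apart by Dixon's ratio, and chance sets apart about 1 group in 20. Polrmt on control IgG replicate 6 was 10.11, against 10.26 to 10.35 on the other control arrays. Rnaseh1 on anti-FGFR1 replicate 4 was 7.984, against 7.816 to 7.876 on the other anti-FGFR1 arrays. ND5 on anti-FGFR1 replicate 6 was 13.96, against 14.13 to 14.22. The 3' to 5' log2 ratio on control IgG replicate 1 was 0.2209, against 0.1393 to 0.1631 on the other controls. The skeletal muscle mean on anti-FGFR1 replicate 5 was 6.767, against 10.28 to 11.48, and the brown adipocyte mean on control IgG replicate 1 was 11.97, against 12.29 to 12.45.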

How the results depend on the processing

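With another quantile normalization 4 of the 9 members and 2 of their 22 probe sets were called, with median-centred arrays 0 and 0, with the macrophage mean as a covariate 0 and 0, with the mean of all probe sets 1 member, and without single arrays 0 to 2 members and 0 to 2 probe sets. With the muscle mean as a covariate 0 of the 22 probe sets were called, with only probe sets above the median level 3, and with an intensity trend 2. The 7 lists held 4 calls, and 1 once the 3' to 5' ratio entered the model, 7 with the macrophage mean, 10 with the mean of probe sets and 8 above the median level. With the 3' to 5' ratio there were 688 calls over all genes, against 1461 without it, and 910 over all probe sets, against 2398. The cause was not tested.

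The groups share replicate numbers, but deviations of same-numbered arrays correlated at 0.285, 0.329 and 0.218 for numbers 1 to 3 and at -0.00377, -0.295 and -0.124 for numbers 4 to 6. Anti-FGFR1 replicates 1 and 2 correlated best with their own number, a hint from the data only, and the labels do not say that a number marks a pair. With a replicate block 1 member and 0 probe sets were called, with Tfb1m at a limma adjusted p of 0.0572 and Ssbp1 at 0.0445.

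Signs turned for Gabpa (-0.0117 with the muscle mean, -0.0296 with the macrophage mean, -0.0462 with the mean of probe sets, -0.0174 to 0.0486 without single arrays), for Polg (0.012 after quantile normalization), for 1 Nrf1 probe set with the macrophage mean (-0.0335) and another with the 3' to 5' ratio (0.0491), for 1 Polg probe set with the 3' to 5' ratio (0.13), and for 1 Ssbp1 probe set with the macrophage mean (0.0279), which without single arrays ran from -0.0717 to 0.00083. The values of Tfb1m and Ssbp1 used in the report stayed above 0 under all alternatives run, as did those of Tfam, Tfb2m, Polg2 and Polrmt. The 6 arrays per group limit the precision.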
